A study of Saccharomyces cerevisiae with 27 samples.

Results

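Messenger RNA of the yeast strain G906D was compared between 3 libraries labelled as taken 2 h after the shift to 37 °C and 3 libraries labelled 0 h. These 6 libraries, selected by the strain and the time in their labels, are part of a series of 27 in which 3 strains were each sampled at 0, 1 and 2 h with 3 replicates. G906D and C719A carry variants of ALA1, the gene of alanyl-tRNA synthetase (AlaRS), and WT carries the unchanged gene. G906D is an aminoacylation variant of the enzyme and C719A an editing variant. All strains are described as derivatives of BY4741 that lack the chromosomal ALA1 and hold one ALA1 allele on a LEU2 plasmid that was exchanged by plasmid shuffling, so WT cells carry the same deletion and the same kind of plasmid. Cultures were grown in YPD, a rich glucose medium, at 30 °C and then moved to 37 °C. The labels speak of overnight growth and the methods of log phase. Each strain is 1 genetic construct. The study calls the replicates A, B and C biological without saying whether they were separate cultures of 1 transformant. The p-values below therefore measure only spread between libraries. That spread was estimated over all 27 libraries, those of WT and C719A included. No library was held at 30 °C for 2 h, and the effects of temperature and of time in culture cannot be told apart.

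AlaRS joins alanine to its tRNA and removes serine that was attached by mistake. When yeast is warmed, the heat shock factor Hsf1 is known to switch on chaperone genes within minutes, and the paired factors Msn2 and Msn4 switch on a broad set of stress genes. Genes of ribosomal proteins and of ribosome assembly are repressed in the same response. A shortage of charged tRNA is sensed by the kinase Gcn2, which raises translation of GCN4, the activator of amino acid synthesis genes.

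The 6 libraries held between 15273233 and 21169797 counted reads, and all 27 held between 14471528 and 23057641. Values below are CPM, counts scaled to a common library total by trimmed mean of M-values (TMM), and they serve to compare a gene between libraries, not one gene with another. ALA1 itself had 1679, 1864 and 1813 CPM at 2 h, against 2715, 2776 and 2549 CPM at 0 h (log2 fold change -0.59 ± 0.156 (SE), adjusted p = 0.00196, quasi-likelihood test of edgeR, adjusted by Benjamini-Hochberg). Its transcript was thus present in every library and lower after 2 h with TMM. Scaled by library size alone its log2 fold change was -0.105, so the size of this fall depends on the scaling. LYS2, URA3, MET17 and MET28 had 0 counts in all 27 libraries. BY4741, the parent strain that the methods name, is known to lack URA3 and MET17 but to keep LYS2. The absence of LYS2 reads differs from what is known of that parent, as do the mating type markers. MET28 also had no reads and the counting tool is not known, and whether 0 counts reflect missing genes was not tested. Genes specific to the MATalpha mating type summed to 1385 to 1547 CPM at 2 h and 10610 to 10860 CPM at 0 h, whereas those specific to MATa, the known mating type of BY4741, summed to 189.3 to 220.4 CPM at 2 h and 69.86 to 85.88 CPM at 0 h. None of the 4 tested MATalpha genes or 7 tested MATa genes was at 0 in these 6 libraries. Of the gene groups described below, the Msn2/4 stress genes were mostly higher and ribosomal protein genes mostly lower in the libraries labelled 2 h, the known directions for yeast moved to heat, whereas most Hsf1-driven chaperones were lower, not higher. All directions in the text follow the labels.

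The promoters of 4 genes that the results turn on are printed here, because they hold the letters that known regulators of these genes read. Each line holds the 140 bases that begin 250 bases before the start codon, 5′ to 3′ on the gene's own strand, in the RefSeq R64 genome. HSP104 (XII:88373-88512, plus strand) and HSP12 (VI:107006-107145, plus strand) encode a disaggregase that fell and a membrane-protecting small heat shock protein that rose, and their capitals mark AGGGG or its complement, the stress response element of Msn2 and Msn4. ZPR1 (VII:914991-915130, plus strand) encodes a chaperone of translation elongation factor eEF1A, and its capitals mark the strict heat shock element of Hsf1 (3 units of GAA in alternating orientation, each pair set apart by any 2 bases), followed by the ribosome assembly elements RRPE (AAAAATTT) and PAC (GATGAG). MF(ALPHA)2 (VII:345264-345403, minus strand) encodes a precursor of alpha factor, and its capitals mark the pheromone response element TGAAACA. Both strands were searched, and the capitals of different matches do not overlap.
HSP104: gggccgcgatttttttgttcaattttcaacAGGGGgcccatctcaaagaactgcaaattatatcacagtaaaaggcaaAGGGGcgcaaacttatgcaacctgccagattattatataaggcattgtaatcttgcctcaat
HSP12: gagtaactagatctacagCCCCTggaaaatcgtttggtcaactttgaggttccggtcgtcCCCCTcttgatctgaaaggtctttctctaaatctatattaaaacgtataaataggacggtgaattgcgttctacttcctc
ZPR1: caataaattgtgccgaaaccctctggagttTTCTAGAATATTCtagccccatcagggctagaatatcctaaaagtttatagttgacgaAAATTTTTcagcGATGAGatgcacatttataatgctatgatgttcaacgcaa
MF(ALPHA)2: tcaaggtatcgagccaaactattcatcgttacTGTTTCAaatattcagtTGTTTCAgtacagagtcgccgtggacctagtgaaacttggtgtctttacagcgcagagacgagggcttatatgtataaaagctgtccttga

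HSP104 and HSP12 each held 2 copies of the stress response element in these bases, and they moved in opposite directions. Windows ran from 250 bases before to 50 bases after the start of each tested gene found in R64, without removing noncoding genes. AGGGG was present in 166 of 503 windows of genes that rose at least 2-fold (33%). It was in 99 of 515 windows of genes that fell at least 2-fold (19.2%) and in 1276 of all 5825 windows (21.9%). RRPE showed the other order, with 51 of 503 windows among the genes that rose (10.1%), 130 of 515 among those that fell (25.2%) and 842 of 5825 overall (14.5%). The strict heat shock element was in none of the 503 windows of genes that rose, in 14 of the 515 windows of genes that fell (2.72%) and in 46 of all windows (0.79%). It was present in 8 of the 25 Hsf1-driven chaperones (32%), and AGGGG was also in 8 of these 25 (32%). PAC and RRPE were present in 114 and 103 of 124 ribosome biogenesis genes (91.9% and 83.1%), and AGGGG in 20 of 32 Msn2/4 stress genes (62.5%). PAC was in 1159 of all windows (19.9%), in 111 of 515 of genes that fell (21.6%) and in 76 of 503 of genes that rose (15.1%). The Gcn4 element TGACTC was in 6 of 10 arginine synthesis genes (60%) against 471 of all windows (8.09%), and TGAAACA in 13 of 22 pheromone response genes (59.1%) against 430 of all windows (7.38%). These are matches of letters and do not show binding.

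After 2 h at 37 °C most of the measured transcripts of G906D had moved. Of 6386 genes tested, 2233 were higher (35.0%) and 2045 were lower (32.0%) at an adjusted p below 0.05 (the same edgeR test, adjusted over all genes), and the other 2108 were not called. At least 2-fold changes were found for 567 of the higher and 612 of the lower genes. In 4804 genes (75.2%) the 3 libraries at 2 h lay wholly above or wholly below those at 0 h, 2485 of them above and 2319 below. The balance depends on the scaling: with library size alone in place of TMM, 3902 genes were higher and 902 lower, and the median log2 fold change of all genes moves up by 0.48. Counts with TMM in the gene lists below stand beside these 35.0% and 32.0% of all genes. Counts with library size alone stand beside 3902 higher and 902 lower of the 6386 genes. The 43 lists overlap in part, and 8 listed genes had too few counts to be tested, 6 of them with 0 counts in all 27 libraries and the others (HXT16, ATG16) with 2 and 18 counts in all.

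**Figure D1:**
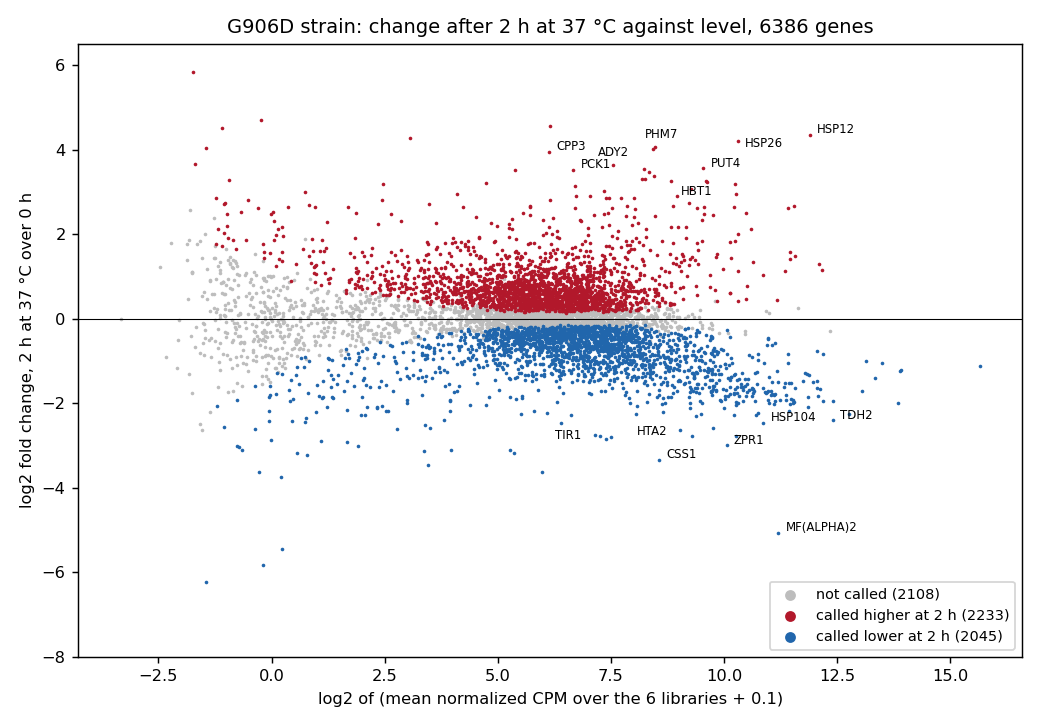
Each point is 1 of 6386 genes in the G906D strain, with its mean normalized CPM over the 6 libraries on the horizontal axis (log2 scale) and its log2 fold change, 2 h over 0 h, on the vertical axis. There are 2233 genes called higher and 2045 called lower, HSP12 lies at 4.35 and MF(ALPHA)2 at -5.07, and some genes of very low level lie further out.

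Chaperone genes were mostly lower after 2 h, while the small heat shock genes HSP12 and HSP26 were far higher. HSP104, the disaggregase that frees proteins from aggregates, had 624, 579 and 515 CPM at 2 h, against 3157, 3114 and 3253 CPM at 0 h (log2 fold change -2.47 ± 0.179 (SE), adjusted p = 3.47e-11, edgeR). Every 2 h library was several times below every 0 h library. SSA2, a cytosolic Hsp70, had 516, 573 and 605.5 CPM at 2 h, against 2774, 2726 and 2784 CPM at 0 h (log2 fold change -2.29, adjusted p = 3.61e-11). SIS1, an Hsp40 that hands substrates to Hsp70, had 248, 210.4 and 228 CPM at 2 h, against 1031, 943.5 and 986 CPM at 0 h (log2 fold change -2.11, adjusted p = 9.32e-10). The groups did not overlap for either gene. HSP78, the mitochondrial disaggregase, had 315, 300.1 and 261 CPM at 2 h, against 1204, 1154 and 1145 CPM at 0 h, and SSA4, a stress-inducible Hsp70, had 161, 176 and 166 CPM at 2 h, against 702, 618 and 677 CPM at 0 h. Both fell, by 2.00 and 1.99 on the log2 scale, and again no library of one time reached the other. BTN2, which sorts aggregates, and HSP42, a small heat shock protein of cytosolic aggregates, changed by -1.99 and -1.645 in log2 (adjusted p = 4.64e-07 and 1.49e-08).

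HSP12 had 7687, 7374 and 6821 CPM at 2 h, against 289.6, 279 and 508.5 CPM at 0 h (log2 fold change 4.345 ± 0.551 (SE), adjusted p = 2.2e-07, edgeR), the highest rise among the named protein-coding genes of mean log2 CPM of at least 5. Replicate C at 0 h stood well above A and B for this gene but remained far below all libraries at 2 h. HSP26, which encodes a small heat shock protein that holds unfolded proteins, had 2308, 2562 and 2308 CPM at 2 h, against 123, 127.5 and 142 CPM at 0 h (log2 fold change 4.19 ± 0.218 (SE), adjusted p = 2.97e-13), with 3 close libraries at each time. SSA3, an Hsp70 gene of late growth and stress, had 217, 212 and 197 CPM at 2 h, against 97.8, 101 and 98.3 CPM at 0 h (log2 fold change 1.07, adjusted p = 3.77e-12), and AHA1, which stimulates the ATPase of Hsp90, had 435, 431 and 417 CPM at 2 h, against 176, 178 and 174 CPM at 0 h (log2 fold change 1.28, adjusted p = 1.74e-12). Both were higher in every 2 h library. HSP31, a stress chaperone and methylglyoxalase, changed by 1.235 in log2 (adjusted p = 4.8e-08).

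By role, the disaggregase and small heat shock group had 3 of 9 members higher (HSP12, HSP26, HSP31) and 5 lower, and the lowest of these, HSP30, a plasma membrane stress protein, had 239, 242 and 262 CPM at 2 h, against 1342, 1482 and 1658 CPM at 0 h (log2 fold change -2.59). Among Hsp70 and Hsp110 genes 1 of 14 was higher and 11 lower (4 higher and 9 lower with library size alone), with a median log2 fold change of -0.85 beside 0.04 over all genes tested. KAR2, the Hsp70 of the endoplasmic reticulum, changed by -1.63, the ribosome-bound SSB2 by -1.60, and SSA1 by -0.83. SSA1 and SSA2 share most of their sequence, and how the counting split their common reads is not known. Of 19 Hsp40 and nucleotide exchange genes 2 were higher and 12 lower with a median of -0.365, which turns to 0.115 with library size alone (6 higher, 6 lower). ZUO1, the ribosome-bound partner of Ssb, and YDJ1, the main cytosolic Hsp40, were lower under both scalings (-1.76 and -1.39 with TMM, -1.28 and -0.91 with library size). The 8 CCT chaperonin subunits, which fold actin and tubulin, had 7 members lower and none higher, with a median of -0.525, which is -0.04 with library size alone (3 higher, 2 lower).

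The Hsp90 system was split. HSC82, the constitutive Hsp90, changed by -0.98 (adjusted p = 1.43e-06, edgeR), while HSP82, the inducible copy, had 979, 983 and 897 CPM at 2 h, against 1306, 1210 and 1334 CPM at 0 h (log2 fold change -0.43 ± 0.146 (SE), adjusted p = 0.0122) and a log2 fold change of 0.05 with library size alone. The direction of HSP82 therefore rests on the scaling, and the 2 copies are nearly identical in sequence. Of 12 Hsp90 and cochaperone genes 3 were higher (AHA1, CPR6, SGT1) and 5 lower, with a median of -0.22 that turns to 0.26 with library size alone (6 higher and 2 lower). PPT1, an Hsp90-associated phosphatase, was the lowest at -1.36. Across the 25 genes listed as driven by Hsf1, which overlap these groups, 3 were higher and 17 lower with a median of -0.83, and 7 were higher and 13 lower with library size alone (median -0.35). Folding genes of the endoplasmic reticulum had 3 of 18 higher and 11 lower, with a median of -0.29 that becomes 0.19 with library size (9 higher and 4 lower). Proteasome genes moved little, with 11 of 33 higher, 8 lower and values between -0.685 and 0.56, and their median is -0.03, or 0.45 with library size alone, where 27 were higher and 0 lower by the same test.

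**Figure D2:**
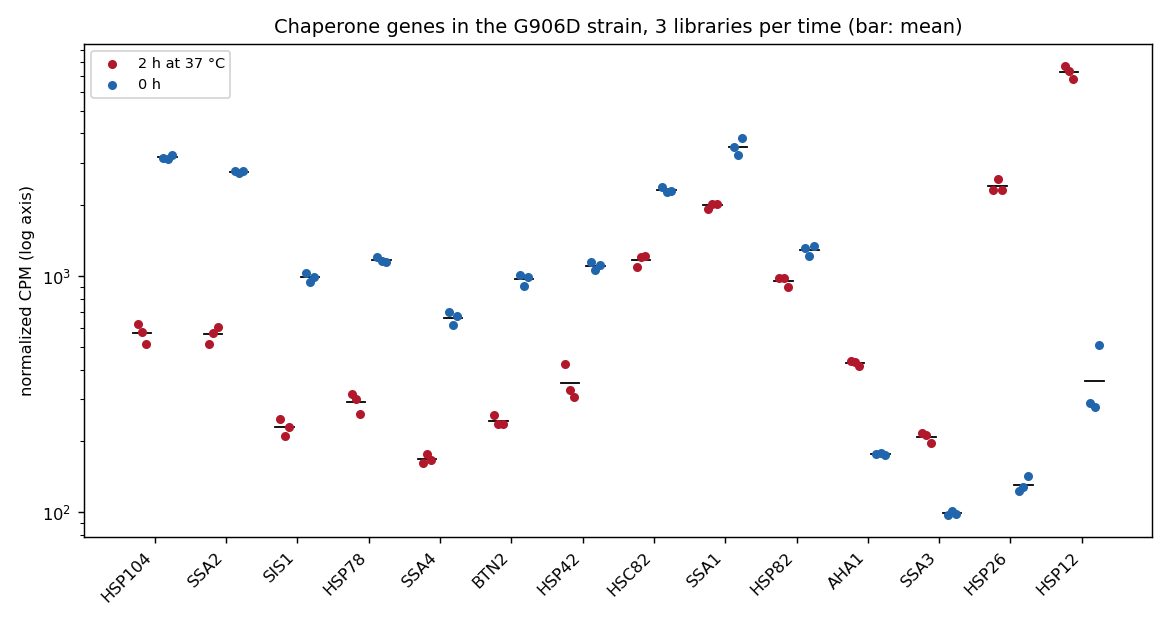
Normalized CPM of 14 chaperone genes on a log axis, with the 3 G906D libraries at 2 h left of the 3 at 0 h and a bar at each mean. HSP104 lies at 515 to 624 CPM after 2 h and at 3114 to 3253 CPM at 0 h, whereas HSP26 lies at 2308 to 2562 CPM after 2 h and at 123 to 141.7 CPM at 0 h, and HSP82 is among the genes that differ least, with a direction that turns under library size scaling.

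HSF1 itself, the regulator of the chaperone genes, had 305, 296.5 and 308 CPM at 2 h, against 181, 182 and 185 CPM at 0 h (log2 fold change 0.73 ± 0.092, adjusted p = 1.79e-07, edgeR). Its transcript was higher in every 2 h library, opposite to most chaperones on its list. MSN2 was also higher (0.64), and MSN4 was lower with TMM (-0.395, adjusted p = 0.00998) and at 0.08 with library size alone. Of 18 stress and growth regulators 13 were higher and 3 lower (15 and 0 with library size alone). XBP1, a repressor of cyclin genes under stress, and STB3, which binds RRPE, had the highest values (1.94 and 1.68), and DOT6, a repressor that binds PAC, changed by 1.09.

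Among 32 genes listed as targets of Msn2 and Msn4, 21 were higher and 3 lower (26 and 0 with library size alone), with a median of 0.79. Beside HSP12 and HSP26, TMA10, a ribosome-associated stress protein, and ALD3, a cytosolic aldehyde dehydrogenase, rose by 3.19 and 3.06 in log2. CTT1, the cytosolic catalase, had 1804, 1452 and 1153 CPM at 2 h, against 255, 238 and 309 CPM at 0 h (log2 fold change 2.46, adjusted p = 3.95e-07), with no overlap. The 3 members that fell, GPH1, PGM2 and GSY2, act in glycogen metabolism (-0.91, -0.77 and -0.76). The trehalose and glycogen list, which holds them too, had 6 of 18 genes higher and 5 lower and a median of -0.15 (0.33 with library size alone, 9 higher and 2 lower). In that list ATH1 and NTH2, which break trehalose down, rose by 2.465 and 1.58, and GSY1, a glycogen synthase, had 253, 224 and 191 CPM at 2 h, against 1026, 1090 and 1193 CPM at 0 h (log2 fold change -2.31). Of 26 antioxidant genes 5 were higher, with CTT1 first and PRX1, the mitochondrial peroxiredoxin, next (1.36), and 12 were lower, with TRX1, a thioredoxin, lowest (-1.85). Their median of -0.21 becomes 0.27 with library size alone, where 13 were higher and 7 lower.

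The genes of the cytosolic ribosome fell together. Of 137 ribosomal protein genes 131 were lower and none higher, with a median log2 fold change of -1.63 (-1.15 with library size alone, 3 higher and 129 lower). RPL3, a protein of the large subunit next to the peptidyl transferase center, had 3811, 4093 and 4062 CPM at 2 h, against 12690, 13660 and 12910 CPM at 0 h (log2 fold change -1.71 ± 0.169 (SE), adjusted p = 4.42e-09, edgeR). RPL39, RPL1A and RPS31 had the lowest values (-2.36, -2.29 and -2.25), and the 6 that were not called were RPL33A, RPL7B, RPL15B, RPL9B, RPL43A and RPL22A. Most ribosomal proteins have near-identical gene pairs, so reads of the 2 copies may have been split between them. Ribosome biogenesis genes changed less, with 1 of 124 higher, 85 lower and a median of -0.56, and with library size alone 14 were higher and 29 lower (median -0.08). NOP10 and GAR1, proteins of the particles that modify ribosomal RNA, changed by -1.68 and -1.61, and DBP6, an RNA helicase, was the single member called higher (0.36). Of 24 subunit genes of RNA polymerases I and III, 19 were lower and none higher (median -0.705, 10 lower and 4 higher with library size). ZPR1 had 224, 237 and 251 CPM at 2 h, against 1993, 1880 and 1829 CPM at 0 h (log2 fold change -3.0 ± 0.263 (SE), adjusted p = 6.54e-10), one of the lowest values among abundant genes.

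Genes of glycolysis were lower after 2 h, and genes for growth on other carbon sources were higher. TDH3, a glyceraldehyde-3-phosphate dehydrogenase and the gene with the most reads, took 3.017 to 3.577% of all counts at 2 h and 4.668 to 5.445% at 0 h (log2 fold change -1.11, adjusted p = 8.93e-05, edgeR). ENO2, the main enolase, had 5140, 6010 and 6599 CPM at 2 h, against 24020, 25780 and 20660 CPM at 0 h (log2 fold change -1.99 ± 0.236 (SE), adjusted p = 7.8e-08). Of 21 glycolysis and fermentation genes 17 were lower and 2 higher, with a median of -1.04, and 13 were lower and 4 higher with library size alone. TDH2, TPI1, FBA1 and PGK1, other genes of glycolysis, ranged from -2.41 to -1.38, with TDH2 and TDH3 nearly identical in sequence. The members that rose were HXK1, a hexokinase that glucose is known to repress (1.45), and PDC6, a minor pyruvate decarboxylase (1.425).

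PCK1, the first enzyme of gluconeogenesis, had 218, 187.5 and 155.5 CPM at 2 h, against 14.1, 14.6 and 20.2 CPM at 0 h (log2 fold change 3.53 ± 0.199 (SE), adjusted p = 1.09e-12), and ICL1, isocitrate lyase of the glyoxylate cycle, had 252, 245 and 205 CPM at 2 h, against 91.8, 76.2 and 79.5 CPM at 0 h (log2 fold change 1.504). The libraries of each time were well apart. Of 16 genes of this list 15 were higher, with a median of 1.795, and MDH3, the peroxisomal malate dehydrogenase, was the 1 lower (-0.41, 0.07 with library size alone). ADY2, an acetate permease, and ACS1, an acetyl-CoA synthetase, changed by 3.64 and 2.61, and FBP1, fructose-1,6-bisphosphatase, by 0.86. Hexose transport and sensing genes had 9 of 19 higher and 3 lower (15 higher and 2 lower with library size alone). HXT5, a transporter of slow-growing cells, had 834, 608 and 483 CPM at 2 h, against 51.6, 53.4 and 80.1 CPM at 0 h (log2 fold change 3.38, adjusted p = 4.61e-08), and HXT1, the low-affinity transporter that high glucose induces, had 2796, 2299 and 2222 CPM at 2 h, against 406, 413 and 469.6 CPM at 0 h (log2 fold change 2.505). HXT6 and HXT4, of higher affinity, were lower (-1.90 and -1.20), with HXT6 and HXT7 nearly identical. Of the citrate cycle 6 of 17 genes were higher (35.3%, close to the 35.0% of all genes) and 1 lower, or 16 higher and 0 lower with library size alone (median 0.195 and 0.675), with LSC2 and SDH2 highest (1.39 and 1.23).

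Among the highest rises of abundant genes were others of transport and stationary growth. PHM7, of unknown molecular function and listed with phosphate-regulated genes, had 818, 676.5 and 529.8 CPM at 2 h, against 25.3, 30.2 and 67.0 CPM at 0 h (log2 fold change 4.05), and PUT4, the proline permease, had 1639, 1318 and 1170 CPM at 2 h, against 65.8, 84.2 and 202 CPM at 0 h (log2 fold change 3.555). In both genes replicate C was the highest at 0 h and the lowest at 2 h, and the times still did not overlap. TKL2, a transketolase, CPP3, FMP45, a cell membrane protein of stationary phase, GID10, a substrate receptor of the GID ubiquitin ligase, and HBT1, a polarity protein, changed by 4.01, 3.94, 3.48, 3.32 and 3.26 in log2. On the other side stood CSS1 (-3.35), IMD2, an enzyme of guanine nucleotide synthesis (-2.80), and TIR1, a cell wall mannoprotein of cold and low oxygen (-2.76). YHB1, a flavohemoglobin that removes nitric oxide, had 139, 170.1 and 170.1 CPM at 2 h, against 1066, 1150 and 1060 CPM at 0 h (log2 fold change -2.77, adjusted p = 7.53e-13, edgeR).

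**Figure D3:**
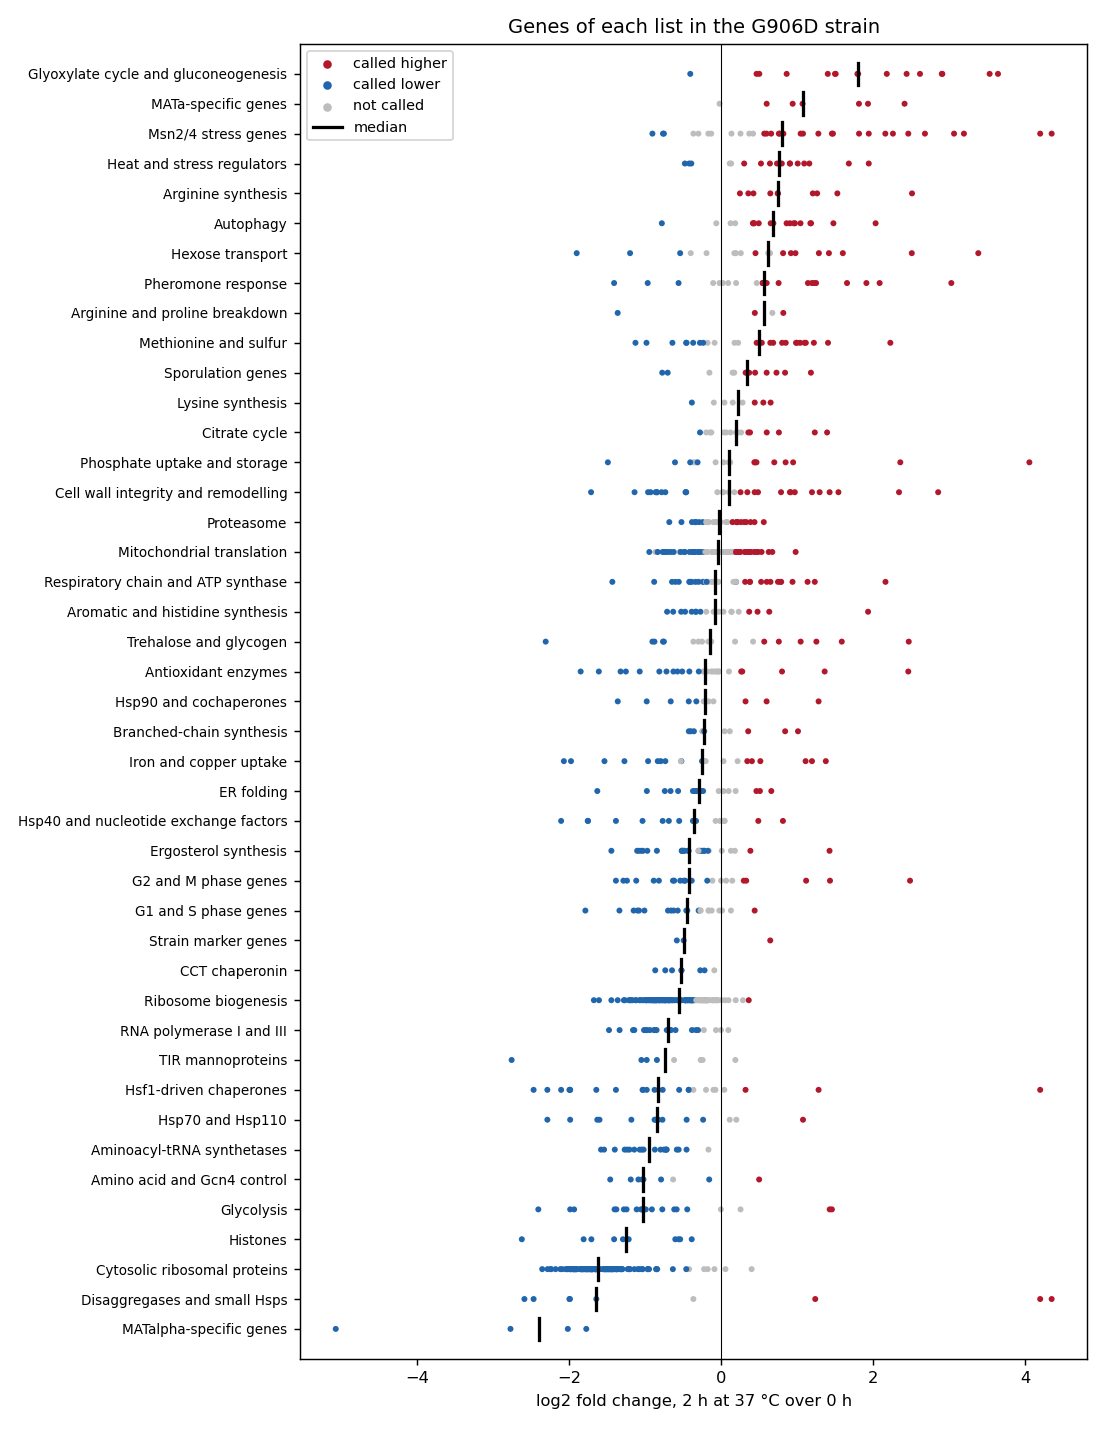
Each point is a gene of 1 of 43 gene lists at its log2 fold change in G906D, 2 h over 0 h, coloured by its call, with a bar at the list's median. The glyoxylate list has its median at 1.795 and the ribosomal protein list at -1.63, and the medians of 14 lists near 0 change sign when libraries are scaled by size alone, which moves all genes up by 0.48.

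Arginine synthesis rose as a group. All 10 tested genes of the list were higher under both scalings, with a median of 0.74. ARG1, argininosuccinate synthase, had 332, 366 and 355 CPM at 0 h, 379, 269.9 and 264 CPM at 1 h and 723, 800.5 and 998 CPM at 2 h (log2 fold change 1.26 ± 0.165 (SE), adjusted p = 3.51e-07 for 2 h over 0 h, edgeR). The 1 h libraries lay around the 0 h level, and the 2 h libraries lay above both. ARG3, ornithine carbamoyltransferase, had 45.1, 54.9 and 55.3 CPM at 0 h, 137, 90.75 and 103 CPM at 1 h and 289.8, 287 and 307 CPM at 2 h (log2 fold change 2.51, adjusted p = 1.99e-10), so here all 1 h libraries were already above those at 0 h. CPA1, of carbamoyl phosphate synthesis for arginine, changed by 1.53, and ARG5,6, which makes acetylglutamate kinase and reductase from 1 precursor, by 1.20. In arginine and proline breakdown, CAR1, arginase, was lower (-1.36, adjusted p = 0.000387), and PUT1 and PUT2, of proline use, were higher (0.815 and 0.44).

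Other amino acid pathways did not move as 1 block. HIS4, a histidine synthesis enzyme, had 436, 382 and 329.9 CPM at 0 h, 365, 238 and 238 CPM at 1 h and 454, 555 and 767 CPM at 2 h (log2 fold change 0.63 ± 0.226 (SE), adjusted p = 0.0168 for 2 h over 0 h). The 3 libraries at 2 h were all above those at 0 h, with replicate C highest. Aromatic and histidine genes had 4 of 20 higher and 8 lower with a median of -0.085 (0.40 with library size alone, 11 higher and 0 lower by the same test), branched-chain genes 3 of 11 higher and 4 lower with a median of -0.225 (0.26 with library size, 6 higher and 0 lower), and lysine genes 3 of 8 higher and 1 lower (7 higher and 0 lower with library size), LYS1 being the highest at 0.65. Methionine and sulfur genes had 14 of 26 higher and 8 lower (19 higher and 2 lower with library size alone). MET6, methionine synthase, rose by 2.22, MUP1, the high-affinity methionine permease, by 1.40, and SAH1, which clears S-adenosylhomocysteine, was the lowest at -1.13.

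GCN4, whose protein activates these pathways, had 653, 721 and 734 CPM at 2 h, against 1478, 1468 and 1546 CPM at 0 h (log2 fold change -1.09 ± 0.144, adjusted p = 3.86e-07, edgeR), without overlap. Its mRNA was lower while ARG1 and ARG3 were higher, and the control of GCN4 is known to lie in its translation, which mRNA counts do not show. Of the 9 genes listed for amino acid sensing and translation initiation 7 were lower and 1 higher. GCN1 and GCN20, which couple Gcn2 to the ribosome, changed by -1.46 and -1.19, the kinase gene GCN2 by -0.16 (adjusted p = 0.0492, 0.32 with library size alone), and EAP1, which binds the cap-binding protein, was the 1 higher (0.50). Of 20 cytosolic aminoacyl-tRNA synthetase genes, ALA1 included, 19 were lower and none higher, with a median of -0.95, and THS1, GUS1 and WRS1, the enzymes for threonine, glutamate and tryptophan, were lowest (-1.58, -1.54 and -1.40). GLN4, for glutamine, was the exception (-0.17, adjusted p = 0.0956). ALA1 at -0.59 was among the smaller changes of this list. With library size alone ALA1 was at -0.105, and 16 of the 20 genes were lower and 1 higher (median -0.47).

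Mating genes moved in both directions. MF(ALPHA)2 had 129, 132 and 148 CPM at 2 h, against 4494, 4541 and 4730 CPM at 0 h (log2 fold change -5.07 ± 0.224 (SE), adjusted p = 1.59e-14, edgeR), the lowest value among abundant genes. MF(ALPHA)1, the main alpha factor gene, had 791, 857 and 959.8 CPM at 2 h, against 3512, 3520 and 3542 CPM at 0 h (log2 fold change -2.02), and SAG1, the agglutinin of alpha cells, had 338, 319 and 285 CPM at 2 h, against 2117, 2247 and 2082 CPM at 0 h (log2 fold change -2.77). None of these genes overlapped between times. With STE3, the receptor for a-factor (-1.78), all 4 tested MATalpha genes were lower, and the 2 others on the list, MATALPHA1 and its identical copy HMLALPHA1, had 0 counts in every library. Genes of MATa cells were low throughout and higher after 2 h in 6 of 7 cases. AGA2, a subunit of the agglutinin of a cells, had 6.004, 7.09 and 8.84 CPM at 0 h, 8.65, 6.62 and 7.09 CPM at 1 h and 43.3, 33.6 and 39.1 CPM at 2 h (log2 fold change 2.41 ± 0.244 (SE), adjusted p = 6.61e-09 for 2 h over 0 h). Levels at 0 h and 1 h overlapped, and all libraries at 2 h were several times higher. STE2, the alpha factor receptor, had 48.4, 46.6 and 44.8 CPM at 2 h, against 14.3, 11.2 and 14.5 CPM at 0 h (log2 fold change 1.81), and MFA1, a precursor of a-factor, had 46.6, 32.5 and 33.8 CPM at 2 h, against 9.25, 8.47 and 12.1 CPM at 0 h (log2 fold change 1.93). ASG7 was the member not called (-0.02, adjusted p = 0.927).

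Of 22 pheromone response genes 13 were higher and 3 lower, with a median of 0.56. KAR4, a transcription factor of the late mating response, had 81.3, 89.2 and 80.0 CPM at 0 h, 130.2, 115.5 and 113 CPM at 1 h and 341, 322 and 277 CPM at 2 h (log2 fold change 1.91 ± 0.111 (SE), adjusted p = 1.8e-12 for 2 h over 0 h), with all 1 h libraries between the other times. PRM1, a protein of membrane fusion, had 346, 342 and 292 CPM at 2 h, against 81.45, 80.2 and 69.5 CPM at 0 h (log2 fold change 2.08, adjusted p = 4.94e-11), and STE12, the factor that binds TGAAACA, had 194, 203 and 188 CPM at 2 h, against 84.6, 85.0 and 87.0 CPM at 0 h (log2 fold change 1.19). Both were higher in all 2 h libraries. FUS1, of cell fusion, and AGA1, the anchor of the agglutinin, changed by 1.65 and 1.14. FIG1, FAR1, which arrests the cell cycle, and PRM3 were the 3 lower members (-1.41, -0.97 and -0.56). Summed levels of 13 sporulation genes, markers of diploid cells in meiosis, were 271.7 to 285.7 CPM at 2 h and 196.9 to 219.3 CPM at 0 h, with 8 members higher and 2 lower, and IME1, the inducer of meiosis, was highest (1.18). Whether a change in the makeup of the cultures contributed to the mating genes was not tested, and fewer cells of a type and less RNA per cell cannot be told apart in such bulk samples.

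**Figure D4:**
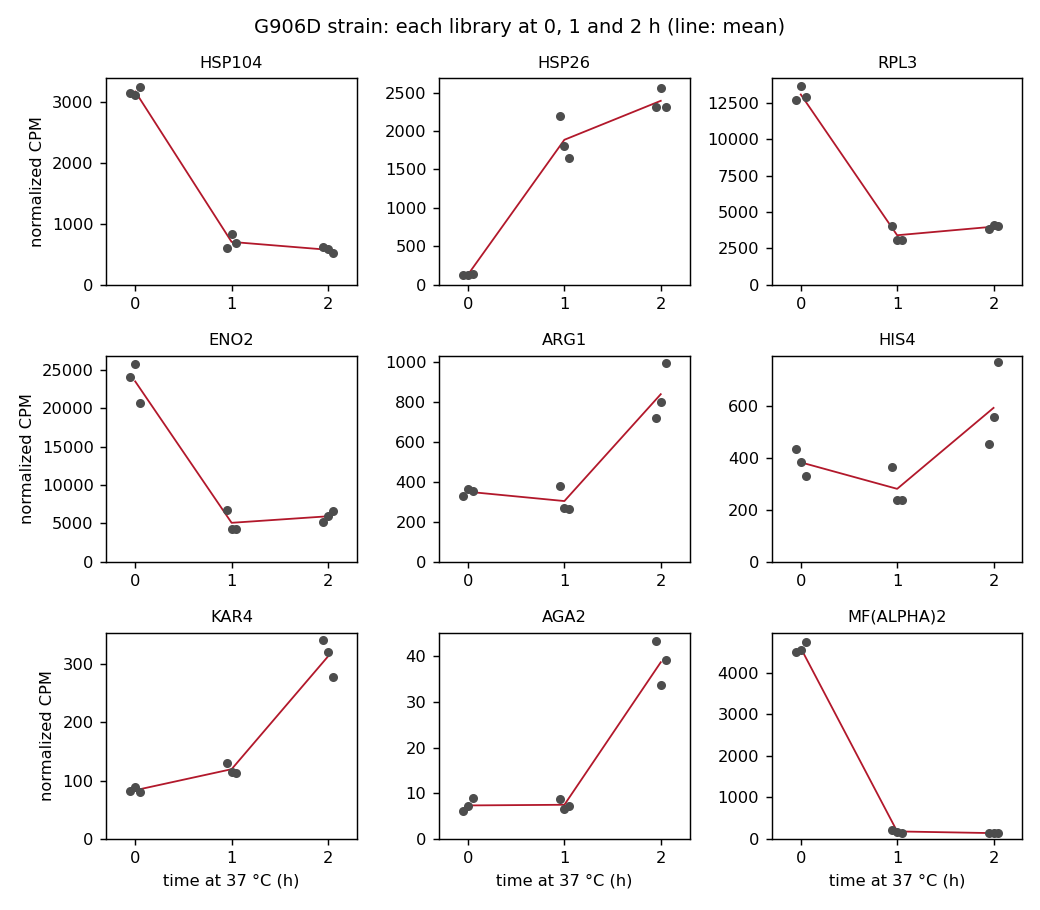
Normalized CPM of 9 genes in each G906D library at 0, 1 and 2 h at 37 °C, with a line through the means and each vertical axis starting at 0. HSP104, RPL3, ENO2 and MF(ALPHA)2 are low at both later times, HSP26 is high at both, and ARG1, HIS4, KAR4 and AGA2 are highest at 2 h, AGA2 with 33.6 to 43.3 CPM.

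Genes of the cell cycle were lower in part. All 10 histone genes were lower, 6 of them also with library size alone, with a median of -1.26. HTA2, a histone H2A gene, had 124, 146 and 166 CPM at 2 h, against 931, 942 and 817 CPM at 0 h (log2 fold change -2.625, adjusted p = 1.29e-10, edgeR), and the paired histone genes share much of their sequence. G1 and S phase genes had 1 of 22 higher and 13 lower with a median of -0.455, which is 0.03 with library size alone (7 higher and 7 lower), and RNR1, of ribonucleotide reductase, was lowest (-1.79). G2 and M phase genes had 5 of 22 higher and 13 lower with a median of -0.43, 0.05 with library size (10 higher and 6 lower). Within that list the mitotic cyclin CLB2 and the daughter-cell repressor ASH1 were low (-1.29 and -1.24), and DSE1 and CTS1, which separate daughter from mother, were high (2.48 and 1.43).

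Cell wall genes were split, with 14 of 31 higher and 12 lower, but 19 higher and 6 lower with library size alone. PIR3, an O-glycosylated wall protein, had 310.3, 287 and 289 CPM at 2 h, against 43.0, 35.0 and 44.9 CPM at 0 h (log2 fold change 2.85 ± 0.116 (SE), adjusted p = 3.34e-15), with very close libraries at each time. CWP1, a wall mannoprotein, and RLM1, the transcription factor of the cell integrity pathway, rose by 2.34 and 1.42, and SCW10, a wall glucanase homolog, fell (-1.71). Of 8 TIR and related mannoproteins 4 were lower and none higher (3 lower and 1 higher with library size alone). Ergosterol synthesis had 20 of 27 lower and 2 higher with a median of -0.43 (0.05 with library size alone, 12 higher and 7 lower), ERG2 being lowest at -1.45 and the regulator of sterol uptake SUT1 highest at 1.42. Autophagy genes were mostly higher, 15 of 19 with 1 lower (18 higher and 0 lower with library size alone), and the receptors ATG39 and ATG40, which mark nuclear envelope and endoplasmic reticulum for breakdown, led them (2.03 and 1.47). Iron and copper genes had 6 of 22 higher and 10 lower with a median of -0.25 (0.23 with library size, 8 higher and 7 lower), from ARN2, a siderophore transporter (-2.07), to AFT2, an iron regulator (1.37). Mitochondrial translation genes had 20 of 70 higher and 24 lower and respiratory chain genes 14 of 38 higher and 13 lower, with medians of -0.04 and -0.085 that become 0.44 and 0.39 with library size, where 49 of the mitochondrial translation genes were higher and 6 lower and 27 of the respiratory chain genes were higher and 2 lower. Phosphate genes had 8 of 18 higher and 4 lower (11 higher and 1 lower with library size alone), PHM7 and the sodium-phosphate symporter PHO89 highest (4.05 and 2.35).

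Fewer genes were called between 2 h and 1 h than between either time and 0 h. The 1 h and 2 h comparisons share the 0 h libraries: 2401 genes were higher and 2161 lower at 1 h over 0 h, with 711 and 802 of them changed at least 2-fold. Between 2 h and 1 h, 500 genes were higher (7.83%) and 530 lower (8.3%), and 40 and 15 of these changed at least 2-fold. One 1 h library, replicate A, stood apart from the other pair, with a chi-square per degree of freedom over genes of 100 and 98.3 against them and 8.62 between them. Without it 1115 genes were higher and 981 lower at 2 h over 1 h. All 10 arginine genes were called higher in the second hour (median 0.81), as were 7 of 8 lysine genes, 13 of 20 aromatic and histidine genes and 6 of 11 branched-chain genes, none of these lists having a member that was lower. ARG1 changed by 1.47, ARG3 by 1.42 and HIS4 by 1.08 between 1 h and 2 h (adjusted p = 2.39e-06, 2.68e-05 and 0.00278, edgeR). Of the synthetase genes 8 of 20 were higher and none lower, and of the ribosomal protein genes 2 were higher and 1 lower.

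Pheromone response genes also rose in the second hour, 12 of 22 with none lower and a median of 0.60, and AGA2 changed by 2.375 (adjusted p = 4.06e-07). Cell wall genes had 18 of 31 higher and 3 lower. CLB1, a mitotic cyclin, had 162, 165 and 145 CPM at 0 h, 48.3, 37.2 and 32.5 CPM at 1 h and 92.05, 112 and 135 CPM at 2 h, so that its level was lowest at 1 h and higher again at 2 h (log2 fold change 1.525 for 2 h over 1 h), and SWI5, a factor of late mitosis, changed by 1.22 over the same hour. In the other direction Msn2/4 stress genes had 11 of 32 lower and 2 higher (median -0.45), and trehalose and glycogen genes 7 of 18 lower and none higher. HSP104 had 3157, 3114 and 3253 CPM at 0 h, 596, 826 and 684 CPM at 1 h and 624, 579 and 515 CPM at 2 h, the last 2 times overlapping. HSP26 had 123, 127.5 and 142 CPM at 0 h, 2201, 1801 and 1654 CPM at 1 h and 2308, 2562 and 2308 CPM at 2 h. All 2 h libraries lay above the 1 h ones, but the change between these times was not called (log2 fold change 0.34, adjusted p = 0.214, edgeR).

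The response of G906D was set beside that of WT over the same 2 h, as the difference of the 2 log2 fold changes. Across 5738 genes the 2 responses had a Pearson correlation of 0.864, given as a description since genes are not independent replicates, and of 3444 genes called in both strains 96.5% had the same sign. The difference itself was above 0 for 810 genes (12.7%) and below 0 for 678 (10.6%), with 179 and 63 of them at least 2-fold. These counts shift to 1800 and 305 with library size alone, which moves the median difference up by 0.20, and the total lies between 1120 without WT 2 h replicate A and 1732 without WT 0 h replicate B. The WT libraries at 0 h were less alike than those of G906D in some stress genes, SSA4 having 774, 2221 and 1689 CPM there.

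HSP26 differed most among the genes named for their rise. Its G906D values are given above, and WT had 836, 637 and 645 CPM at 2 h against 267.5, 235 and 502 CPM at 0 h. The log2 fold change was 4.19 in G906D and 1.08 in WT, with a difference of 3.12 ± 0.277 (SE, adjusted p = 5.97e-08, edgeR). For HSP104 the 2 strains changed by -2.47 and -2.20, and the difference of -0.27 was not called (SE 0.239, adjusted p = 0.434). HSP12 rose by 4.345 in G906D and 2.74 in WT, a difference of 1.60 that also did not pass (adjusted p = 0.0919, edgeR). The WT libraries at 0 h were far apart for HSP12, at 160, 2241 and 605 CPM, so this comparison is imprecise. HSP82 was at -0.43 in G906D and -1.78 in WT, a difference of 1.35 (adjusted p = 6.57e-05), and 7 of 12 Hsp90 and cochaperone genes, 11 of 25 Hsf1-driven chaperones and 14 of 33 proteasome genes were called higher in this difference, with 0, 2 and 0 called lower.

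Glycolysis genes fell less in G906D than in WT in 13 of 21 cases and more in none, ENO2 at -1.99 against -3.35 (difference 1.36). Mitochondrial translation showed the other direction, with 53 of 70 genes below WT in their change and none above, and the median was -0.04 in G906D and 0.52 in WT. Arginine genes were above WT in 7 of 10 cases. ARG1 changed by 1.26 in G906D and 0.045 in WT (difference 1.215, adjusted p = 0.000555), and ARG5,6 had a difference of 1.34. Aromatic and histidine genes were above WT in 11 of 20 cases and below in none. KAR4, whose G906D values are given above, had 22.55, 22.4 and 24.2 CPM at 2 h in WT against 28.7, 25.9 and 22.85 CPM at 0 h in WT. That is a log2 fold change of 1.91 in G906D and -0.17 in WT, with a difference of 2.07 ± 0.161 (adjusted p = 1.46e-08). PRM1 was at 2.08 in G906D and 0.001 in WT, STE12 differed by 1.31, and AGA2 by 2.19.

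Some of the largest differences came from genes that hardly moved in G906D. YRO2, a membrane protein related to Hsp30, had 561, 659 and 656 CPM at 2 h, against 741, 846 and 749.9 CPM at 0 h in G906D and 109, 128 and 121 CPM at 2 h against 853, 555 and 691 CPM at 0 h in WT, a difference of 2.23. TPO2, a polyamine exporter, showed the same form (-0.34 in G906D, -2.43 in WT). CHA1, a serine and threonine deaminase, had 426, 496 and 559.7 CPM at 2 h, against 574, 614 and 505 CPM at 0 h in G906D, with overlap, whereas WT had 1218, 1003 and 1219 CPM at 2 h against 359, 208 and 329 CPM at 0 h. The difference for CHA1 was -2.13 (adjusted p = 4.77e-05, edgeR). NCA3, a protein of the SUN family, rose in both strains and further in G906D (2.86 and 0.90). LIF1, of DNA end joining, had 96.3, 90.1 and 89.5 CPM at 2 h, against 418, 407.5 and 494.5 CPM at 0 h in G906D (log2 fold change -2.26, -0.85 in WT). LIF1 (VII:343319-344584, plus strand) is followed by MF(ALPHA)2 on the other strand (VII:344791-345153), and no strand setting of the counting is known here, so the 2 genes cannot be separated fully. HTA2 fell further in G906D than in WT (difference -1.20), as did ASH1 (-1.195).

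**Figure D5:**
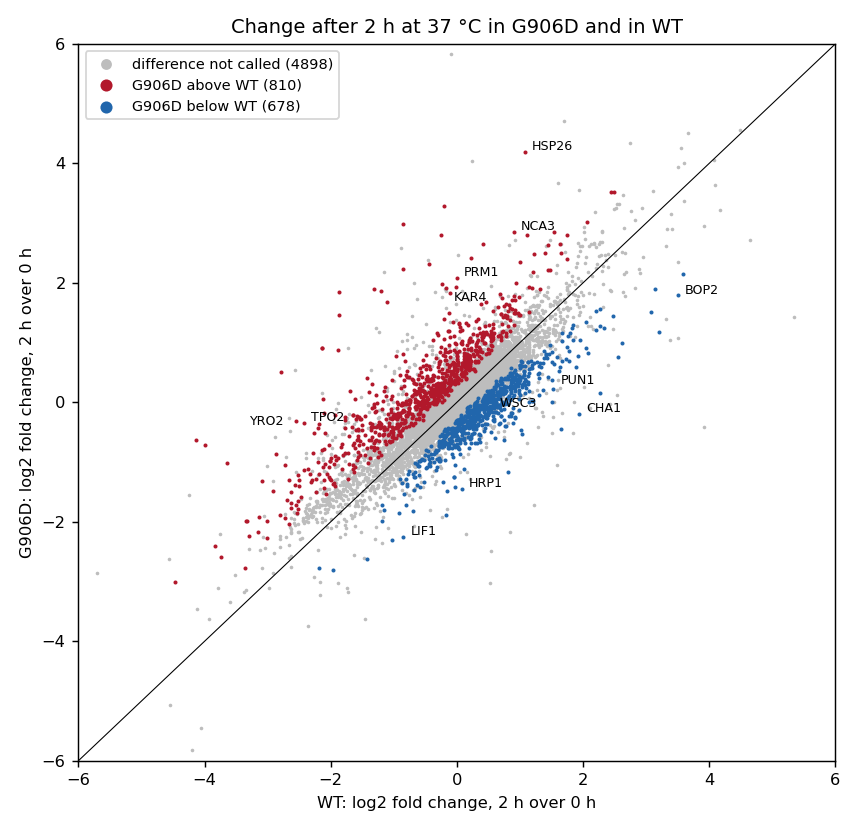
Log2 fold change, 2 h over 0 h, of each gene in G906D (vertical) against WT (horizontal), coloured where the difference between strains was called, with 810 genes above WT, 678 below and 4898 not called. HSP26 lies at 4.19 in G906D and 1.08 in WT and CHA1 at -0.19 in G906D and 1.94 in WT, 2 genes lie outside the plotted range of 6 in either direction, and with library size alone the called genes split into 1800 above and 305 below.

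Against C719A the difference of responses was called for 1110 genes (17.4%), 646 of them above 0 (10.1%) and 464 below 0 (7.27%). Across the same 5738 genes the correlation was 0.854, and 97.1% of 3408 genes called in both strains had the same sign. Proteasome genes were above C719A in 24 of 33 cases and mitochondrial translation genes in 35 of 70, with none below in either list. Msn2/4 stress genes were above in 14 of 32 cases and below in 1. Of 25 Hsf1-driven chaperones, 8 were below C719A in their change and 4 above. HSP104 fell further in G906D (-2.47) than in C719A (-1.05), a difference of -1.42 (adjusted p = 0.000303, edgeR). The G2 and M phase list was below C719A in 12 of 22 cases and above in none. Pheromone response genes were below C719A in 9 of 22 cases and above in 1. These pheromone genes rose in C719A too, with 16 of 22 higher, 2 lower and a median of 1.18 (0.56 in G906D). All 7 MATa genes were also higher in C719A, AGA2 by 1.88, so the rise of mating genes was not particular to G906D. HSP26 rose by 4.19 in G906D and 2.23 in C719A (difference 1.96, adjusted p = 3.73e-05, edgeR), and ARG1 by 1.26 and 0.91 (difference 0.35, adjusted p = 0.313).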

How the data were processed

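Polyadenylated RNA of 27 libraries was sequenced, and the submitters' processing notes name TopHat2 and Bowtie2. The genome build, the counting tool and its strand setting are not given in the sources used here. The authors deposited a table of read counts per gene (7122 gene identifiers, 6045 of which match a locus tag of R64) and a table of FPKM values, which the authors derived from such counts by gene length and depth. Of the tables, 4 lines were empty and are not analysed here. The 3 strains and 3 times were taken from the labels.

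Counts were analysed with edgeR 4.0.16 in R 4.3.3: TMM scaling, filterByExpr (6386 genes tested), a group-mean model over all 27 libraries (9 groups, 18 residual degrees of freedom, common dispersion 0.0125), glmQLFit and glmQLFTest, with Benjamini-Hochberg adjustment over all genes and a threshold of 0.05. The response difference was a contrast of the same fit. With 3 libraries per group an exact permutation test of a single gene cannot go below 0.1, so the fit across genes was used. The method was tested on simulated data for G906D 2 h against 0 h (6344 genes, 200 changed). In these data edgeR recovered 98.5% of the changed genes and 5.29% of its calls were false. In the real libraries the same comparison called 4278 of 6386 genes. How the method performs with so large a share of changed genes was not tested.

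Named genes were the 12 largest rises and falls among called protein-coding genes of mean log2 CPM of at least 5 without overlap of the times, the 6 largest differences from WT in each direction, members of the gene lists, and ALA1. Members and lists were chosen with earlier results of these data known. Alternatives were RLE size factors, library size alone, TMM without ribosomal protein genes, filters of 10 counts or none, DESeq2 1.42.0, limma-trend 3.58.1 on log2(FPKM + 1) and log2(FPKM + 0.1), the 6 libraries alone, a replicate block, and leaving out each library. Depth was 15273233 to 21169797 counts in the 6 libraries. Promoter letters were read from the RefSeq R64 genome, whose gene lengths equal those implied by the deposited tables for 91.3% of 5368 genes checked.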

Additional observations from a re-analysis of the deposited data

Results flagged for a closer look

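The following results differed between strains by a test of the difference itself, the contrast of the 2 h response of G906D minus that of another strain in the edgeR fit with p-values adjusted by Benjamini-Hochberg. The difference was called for 1488 genes against WT and for 1110 genes against C719A. Differences are given in log2, with a positive value where the change in G906D lies above that in WT.

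Genes named for their rise or fall were picked on the G906D libraries that also enter this difference. A difference in the direction of the G906D change may therefore be overstated. Among the genes named for their rise in G906D, HSP26 had a difference of 3.12 and PCK1 of 1.09. Among those named for their fall, ZPR1 (1.47), TDH2 (1.43), HSP30 (1.14) and YHB1 (0.59) fell less than in WT, and GSY1 (-1.29), HTA2 (-1.20), IMD2 (-0.84) and SAG1 (-0.60) fell more.

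Chosen for the size of the difference itself, YRO2 (2.23), TPO2 (2.09), PRM1 (2.08), KAR4 (2.07) and NCA3 (1.96) lay above WT. CHA1 (-2.13), BOP2 (-1.71), the RNA-binding protein HRP1 (-1.52), the wall sensor WSC3 (-1.50), LIF1 (-1.41) and PUN1 (-1.31) lay below it. HRP1 changed by -1.44 in G906D and 0.08 in WT, and WSC3 by 0.01 in G906D and 1.51 in WT. The causes of these differences were not tested.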

How the results depend on the processing

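The scaling of the libraries mattered most. With library size alone, 3902 genes were higher and 902 lower at 2 h (1485 and 262 at least 2-fold). With limma-trend on log2(FPKM + 1) the counts were 3889 and 901 (1353 and 252), and with log2(FPKM + 0.1) 3901 and 897 (1480 and 259). Medians of the gene lists under library size, FPKM + 1 and FPKM + 0.1 were -1.148, -1.147 and -1.148 for ribosomal proteins, -0.349, -0.345 and -0.345 for Hsf1-driven chaperones, 1.273, 1.268 and 1.270 for Msn2/4 stress genes, -0.082, -0.083 and -0.085 for ribosome biogenesis, 2.275, 2.123 and 2.261 for the glyoxylate list, -0.557, -0.561 and -0.561 for glycolysis, and 1.223, 1.188 and 1.219 for arginine synthesis. The difference between G906D and WT had 1800 genes above and 305 below with library size alone.

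DESeq2 called 2229 genes higher and 2114 lower, RLE size factors 2195 and 2088, and the 6 libraries alone 2332 and 2247. Leaving out 1 library at a time gave 2080 to 2134 higher and 1886 to 1958 lower genes. For the median log2 fold change of Hsf1-driven chaperones, G906D 2 h against 0 h, the range was -0.842 to -0.767, and for the glyoxylate list 1.702 to 1.961. Leaving out G906D 1 h replicate A, a choice made after seeing the data, gave 1115 higher and 981 lower genes at 2 h over 1 h. Values of the genes named as the largest rises, falls and differences from WT numbered 576 under the alternatives. All of them kept their direction and their side of the threshold. These genes were chosen for large called changes, so this outcome was largely set by the choice and does not speak for other genes. List members such as HSP82, MSN4, MDH3 and GCN2 turned with library size alone as given above. Of 130 counts of genes, 114 stayed within 1.5 times.

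Replicate letters did not pair the G906D libraries, the correlations of same-letter deviations being -0.092, 0.152 and -0.372, and with a replicate block 2231 genes were higher and 2039 lower. With 3 libraries per group, counting depth limits genes of low count, and no library separates temperature from time in culture.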
